A study of Homo sapiens with 16 samples.

Results

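The 10 genes CDH1, CDH2, CDH3, CLDN1, CLDN4, EPHA2, VIM, FN1, SNAI2 and SPARC code for cadherins, claudins, an Eph receptor, a filament protein, matrix proteins and a transcription factor that are followed when epithelial cells turn mesenchymal. They were followed in MCF10HER2 cells under an inhibitor of the HER2 kinase. A member was any probe whose gene symbol in the signal table equals 1 of these names. Each gene had 1 probe, so the set was 10 probes of 20589, with 18190 symbols in the table. MCF10HER2 is a transduced line made from MCF10A, a nontransformed human breast epithelial line, and stably over expresses HER2 (ERBB2), a receptor tyrosine kinase. All cultures, the untreated one included, carried the HER2 transgene and grew without insulin or serum in medium with EGF and hydrocortisone. Parallel cultures received CP724,714, a small molecule HER2 kinase inhibitor, at 1 µM, and RNA was taken every 3 h from 0 to 45 h onto Illumina arrays. The 0 h array is untreated and the other 15 arrays are treated. Each time point has 1 array, the medium was renewed when treatment began, and an untreated culture later than 0 h was not analysed here, so inhibitor, renewed medium and time in culture cannot be told apart.

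Epithelial cells hold to each other by adherens junctions, in which cadherins of neighbouring cells bind, and by tight junctions, in which claudins seal the space between cells. In the epithelial-mesenchymal transition (EMT) cells lose these contacts, change E-cadherin (CDH1) for N-cadherin (CDH2), build vimentin (VIM) filaments and secrete matrix proteins such as fibronectin (FN1). Factors of the Snail, Twist and ZEB families, among them Slug (SNAI2), repress CDH1 in this program. Basal mammary cells, and MCF10A cells, express SNAI2 and P-cadherin (CDH3) without being mesenchymal.

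Values are background-corrected, quantile-normalized signals on the log2 scale, and a probe was detected on an array where its deposited detection p-value was under 0.05. Probes detected on 3 or more arrays were tested, which were 12321. CDH3, CLDN1, CLDN4, EPHA2, VIM and SNAI2 were detected on all 16 arrays, CDH1 on 15 and CDH2 on 12, while FN1 and SPARC were detected on none and were not tested. Of the lineage markers, 9 of 9 epithelial ones were detected on at least 1 array, 8 of them on 3 or more, and KRT14 only at 0 h. Their summed level lay between 69397 and 86369 on the linear scale, with the lowest at 39 h and the highest at 0 h. On a straight line over 45 h, 1 of the 8 rose and 2 fell, against 13.2% and 11.3% of all tested probes. KRT5 fell by 0.47 (SE 0.12, limma adjusted p = 0.0074). Of 8 fibroblast markers, 6 were never detected (COL1A1, COL1A2, LUM, PDGFRB, PDGFRA and THY1) and COL3A1 was detected on 2 arrays. DCN, the decorin gene, was detected on all 16 and rose by 0.90 over 45 h (SE 0.18, limma adjusted p = 0.0010). The fibroblast sum lay between 261 and 429. Of 4 endothelial markers CDH5 and VWF were never detected and PECAM1 was detected on all 16 arrays, with a sum of 125 to 342. Of 4 leukocyte markers CD3D was never detected and CD68 was detected on all 16, with a sum of 619 to 2372 and the highest at 18 h. The part of such cells in the results was not tested. The arrays fall into 2 sets by background signal, 136 to 149 from 0 to 21 h and 164 to 174 from 24 to 45 h, and upper quartiles of 397 (9 h) and 418 (18 h) stood out as dim beside 553 to 804 on the rest. In bulk RNA, less RNA per cell and fewer cells of a type cannot be told apart.

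**Figure D1:**
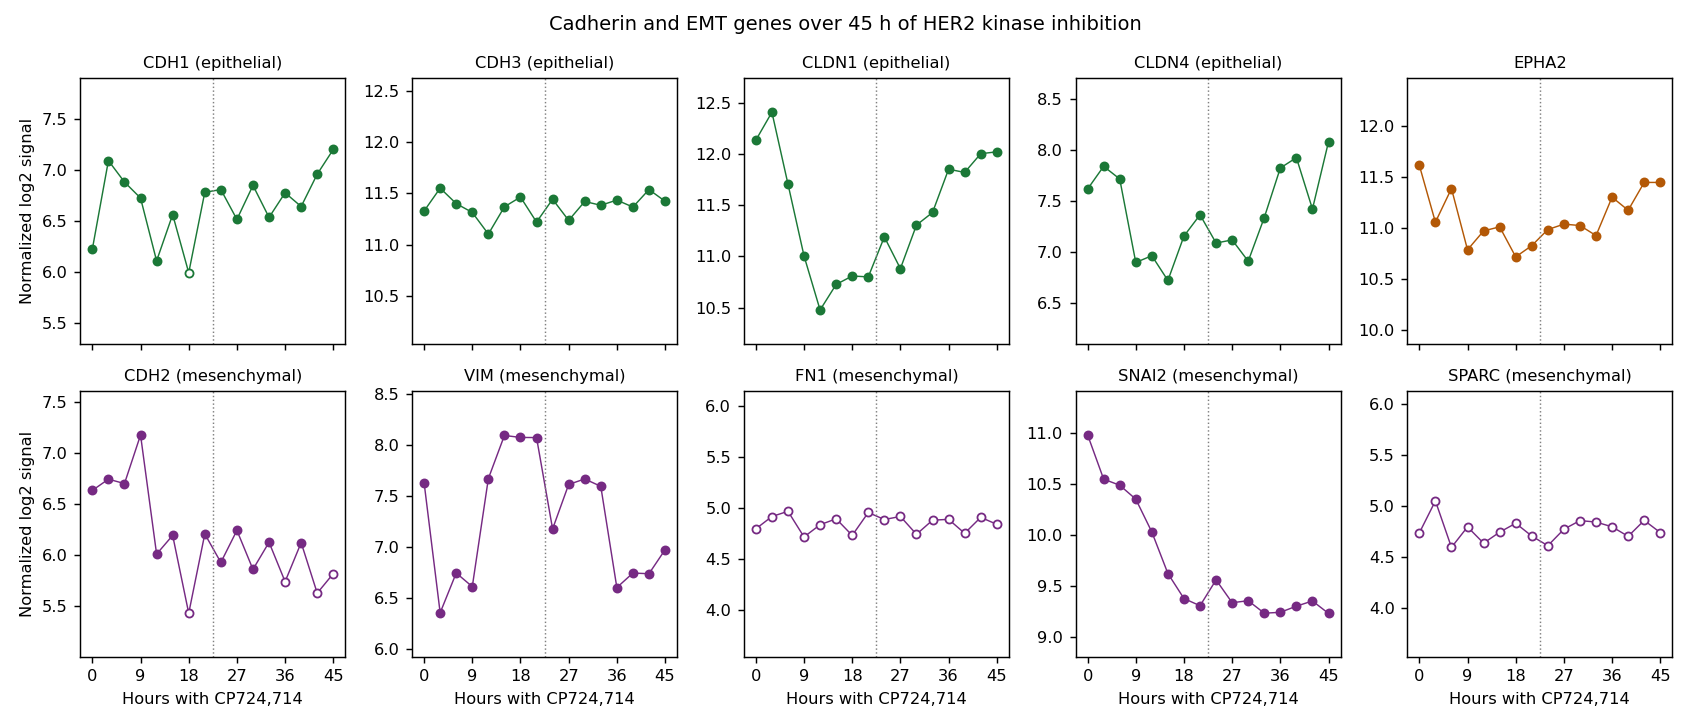
Normalized log2 signal (y axis, each panel spans the same number of log2 units around its own gene) of the 10 genes against hours with CP724,714 (x axis), 1 array a point. Filled points are detected and open points are not, and the dotted line separates the arrays of 0 to 21 h from those of 24 to 45 h. SNAI2 went from 10.98 to 9.23, CLDN1 dipped to 10.48 at 12 h and stood at 12.03 at 45 h, and FN1 and SPARC were not detected on any array.

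The genes did not move together toward either profile. The clearest change was a fall of SNAI2, 3.36-fold between the untreated and the last array. CLDN1 and EPHA2 fell within the first 9 to 18 h and stood near the untreated level again by 45 h, and CLDN4 was at its highest at 45 h. CDH2 was lower on every array from 12 h on than on any array before. For this and the other separations of stretches given below, the share of all tested probes with the same was not counted. CDH1 and CDH3 passed no test, and VIM rose and fell in steps. A smooth curve in time (limma, spline with 4 degrees of freedom, Benjamini-Hochberg adjusted over all tested probes) was past the threshold of 0.05 for 5 of the 8 tested genes, CLDN1, CLDN4, EPHA2, CDH2 and SNAI2, against 42.4% of all tested probes. A straight line over the 45 h was past it for 2 genes, both lower with time (CDH2 and SNAI2), and for none higher, against 11.3% of probes lower and 13.2% higher. The treated arrays differed from the untreated array for 3 genes, all lower (SNAI2, CLDN1 and EPHA2), against 19.6% of probes in either direction, 9.03% lower and 10.5% higher. With array weights, or without a spline among the treated arrays, this comparison passed for none of the 8 genes. Within the arrays of 0 to 21 h, 2 genes had a falling line (CLDN1 and SNAI2) and none a rising line, against 5.56% and 6.17% of probes. Within those of 24 to 45 h, 3 genes rose (CLDN1, CLDN4 and EPHA2), against 12.2%. With the 2 array backgrounds as a block, the straight line passed for 1 gene, SNAI2, against 6.52%. The counts are of 8 genes only, and what follows is about the single genes.

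SNAI2 codes for Slug, a zinc finger repressor of the Snail family. Its normalized log2 signal was 10.98 without inhibitor and 10.55, 10.49 and 10.35 at 3, 6 and 9 h. The next arrays (12, 15, 18 and 21 h) gave 10.03, 9.62, 9.38 and 9.31. From 24 to 45 h it lay between 9.23 and 9.56. All 15 treated arrays were below the untreated array and no array from 12 h on reached any of those from 0 to 9 h. The straight line fell by 1.58 on the log2 scale over 45 h (SE 0.23, n = 16 arrays, limma adjusted p = 6.4e-05), and the treated mean was 1.36 below the untreated array (SE 0.15, limma adjusted p = 1.6e-05). The fall was in the arrays of 0 to 21 h, at -1.71 over 21 h (SE 0.20, limma adjusted p = 0.0037), while the arrays of 24 to 45 h gave -0.20 (SE 0.13, limma adjusted p = 0.29). The difference between those slopes was 1.51 (SE 0.21, limma adjusted p = 0.00055). SNAI2 alone of the 8 genes kept its time dependence when each set of 4 consecutive time points had its own level (limma adjusted p = 0.022), a fit in which the linear change of SNAI2 was -1.99 and did not pass (adjusted p = 0.57).

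By the smallest root mean square difference between log2 values centred on their means over the 16 arrays, the genes most like SNAI2 were SFN, which codes for stratifin (14-3-3 sigma), at 0.162, and FRMD6, a FERM domain gene, at 0.183. SFN went from 13.77 at 0 h to 12.36 at 21 h and 12.37 at 45 h, and FRMD6 from 10.91 to 9.46 and 9.35. SFN is also in the list of epithelial markers. The likeness is a description over arrays of 1 course, which share their order in time.

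Of 16 other transcription factors that drive EMT, 15 were in the table and 9 were tested. Of these 3 were time-dependent, against 42.4% of all tested probes, 2 fell, against 11.3%, and none rose. The median straight-line change was -0.27 against 0.010 over all tested probes. FOXC1, a forkhead factor, fell by 0.91 (SE 0.21, limma adjusted p = 0.0035), and SNAI1 (Snail), detected on 9 arrays, fell by 0.72 (SE 0.23, limma adjusted p = 0.028). TWIST1 was detected on all 16 arrays, between 11.38 and 12.56, with a change of -0.35 that did not pass the test. ZEB1 was detected on no array and ZEB2 on 2. SOX9 and FOXC2 are outside the rule for named genes and were picked after their values were seen. SOX9 was at least 1.7-fold below the untreated array on all 15 treated arrays, with a treated mean 1.33 lower. FOXC2 was above the untreated array on all 15, with a treated mean 0.47 higher (SE 0.26), a difference that did not pass the test. Its straight line, at 0.04 over 45 h, did not pass either (limma adjusted p = 0.93).

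CDH1, the cadherin of epithelial adherens junctions, was dim throughout. Its normalized log2 signal was 6.23 at 0 h, and among the treated arrays the lowest was 6.00 (18 h, where it was not detected), the median 6.78 and the highest 7.20 (45 h). It was above the untreated array on 13 of 15 treated arrays, by 1.97-fold at 45 h. The 3 h array, at 7.09, was almost as high as the 45 h array, and the arrays at 12 and 18 h were the only ones below 0 h. The straight line gave 0.37 over 45 h (SE 0.26, limma adjusted p = 0.33), the spline did not pass (adjusted p = 0.45), and the treated mean was 0.47 above the untreated array (SE 0.27, adjusted p = 0.25). Without the untreated array the time dependence of CDH1 passed (limma adjusted p = 0.031).

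CDH3, the P-cadherin of basal epithelial cells, was nearly flat, at 11.33 without inhibitor and between 11.10 (12 h) and 11.55 (3 h) with it, with a median of 11.40. The full range of its 16 arrays was 1.37-fold. The straight line gave 0.08 over 45 h (SE 0.11, limma adjusted p = 0.65).

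CDH2, the N-cadherin gained in EMT, was dim and fell out of detection at 18, 36, 42 and 45 h. The arrays at 0, 3, 6 and 9 h stood at 6.63, 6.74, 6.70 and 7.17. The 12 arrays from 12 to 45 h lay between 5.43 and 6.24 with a median of 5.97, so the 2 stretches did not overlap. How many of all tested probes are split in this way was not counted. The step from 9 to 12 h was -1.17. The highest CDH2 array (9 h) and the lowest (18 h) are both dim arrays. Before correction and normalization its signal at 9 h, 223, was below those at 0, 3 and 6 h (240, 233 and 240). The untreated level was at least 1.76-fold that at 45 h. Its straight line fell by 0.99 over 45 h (SE 0.27, limma adjusted p = 0.012), and the time dependence of CDH2 was past the threshold (adjusted p = 0.034) but not without the 3 h (0.11), 6 h (0.087) or 42 h (0.0502) array. With the 2 array backgrounds as a block the limma adjusted p was 0.14 for the straight line and 0.17 for the spline, and each set of 4 time points as a block gave 0.51 in the other direction (adjusted p = 0.87). The size of the linear change of CDH2 also rests on the background correction, since with the moments of all negative controls it was -0.10 (limma adjusted p = 0.015).

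Among 24 other cadherins and cadherin-like genes, 10 were tested, 5 were time-dependent, 1 rose and 3 fell, with a median straight-line change of -0.06. Over all tested probes 42.4% were time-dependent, 13.2% rose and 11.3% fell. CDH16, the kidney cadherin, rose by 1.58 (SE 0.31, limma adjusted p = 0.00096). CDH11, a mesenchymal cadherin detected on 12 arrays, fell by 1.56 (SE 0.51, adjusted p = 0.032) and CDH4, the R-cadherin, fell by 1.25 (SE 0.28, adjusted p = 0.0030), both in limma. The third was FAT, an atypical cadherin outside the rule for named genes and picked after its value was seen, at -0.90 (SE 0.17, limma adjusted p = 0.00083).

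The genes that tie cadherins to the cytoskeleton, and those of desmosomes and nectins, gave 17 tested of 20. Of the 17, 9 were time-dependent, against 42.4% of all tested probes, 2 were higher, against 13.2%, and 5 lower, against 11.3%. Their median change was -0.10. CTNNA1, the alpha-catenin that links the cadherin complex to actin, had a change of -0.01. PKP2, a desmosomal plakophilin, rose by 0.68 (SE 0.17, limma adjusted p = 0.0068) and CTNNBIP1, which blocks the binding of beta-catenin to TCF factors, by 0.70 (SE 0.25, adjusted p = 0.049). PVRL1 (nectin-1), which initiates cell contacts, fell by 1.66 (SE 0.29, limma adjusted p = 0.00037), and PVRL4 (nectin-4), detected on 4 arrays, fell by 1.63 (SE 0.40, adjusted p = 0.0053).

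CLDN1, a sealing claudin of tight junctions, had the widest fitted course of the 8 tested genes. Its normalized log2 signal was 12.14 without inhibitor and 12.41, 11.71 and 11.01 at 3, 6 and 9 h. The next arrays (12, 15, 18 and 21 h) gave 10.48, 10.73, 10.81 and 10.80. It lay between 10.88 and 11.43 from 24 to 33 h, and the last arrays (36, 39, 42 and 45 h) gave 11.86, 11.82, 12.01 and 12.03. It was above the untreated array at 3 h and below it on the other 14 treated arrays, by 3.17-fold at 12 h and 1.08-fold at 45 h. The spline spanned 1.79 (limma adjusted p = 3.1e-05). The change over 21 h was -1.74 in the arrays of 0 to 21 h (SE 0.37, limma adjusted p = 0.020) and 1.12 in those of 24 to 45 h (SE 0.14, adjusted p = 0.00015), and these differed by 2.86 (SE 0.43, adjusted p = 0.00066). The treated mean was 0.78 below the untreated array (SE 0.21, limma adjusted p = 0.013), and the call was lost with the array background as a block (adjusted p = 0.10).

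CLDN4, a claudin of many simple epithelia, ran a similar but shallower course. It was 7.61, 7.84 and 7.71 at 0, 3 and 6 h, between 6.72 and 7.36 from 9 to 33 h, and 7.82, 7.92, 7.42 and 8.08 from 36 to 45 h. The lowest array (15 h) and the highest (45 h) were 2.57-fold apart, and the arrays of 36 to 45 h were all above those of 9 to 33 h. The spline spanned 1.00 (limma adjusted p = 0.020), and the time dependence of CLDN4 did not pass without the 45 h array (0.074). The change over 21 h was -0.68 early (SE 0.37, limma adjusted p = 0.24) and 1.00 late (SE 0.24, adjusted p = 0.0072), and the difference of 1.67 (SE 0.46, adjusted p = 0.015) did not pass without the 45 h array (0.052). With the moments of all negative controls the spline spanned 0.23 (adjusted p = 0.017).

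EPHA2, a receptor tyrosine kinase that binds ephrin-A ligands on neighbouring cells, was below the untreated array on all 15 treated arrays. It was 11.62 at 0 h, 11.06, 11.39 and 10.79 at 3, 6 and 9 h, between 10.72 and 11.04 from 12 to 33 h, and 11.31, 11.18, 11.45 and 11.45 from 36 to 45 h. The lowest array (18 h) was 1.86-fold below the untreated array and the 45 h array 1.12-fold below it. The treated mean was 0.54 lower (SE 0.16, limma adjusted p = 0.020) and the spline spanned 0.65 (adjusted p = 0.0079). The change over 21 h was -0.68 early (SE 0.23, limma adjusted p = 0.076) and 0.51 late (SE 0.12, adjusted p = 0.0058). They differed by 1.19 (SE 0.26, adjusted p = 0.0044), which did not pass with median scaling (adjusted p = 0.068).

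CLDN1, CLDN4 and EPHA2 thus shared a dip and a later rise, and at the 33 to 36 h step all went up, by 0.42, 0.49 and 0.38. With each set of 4 time points given its own level, the spline of none of them passed in limma (adjusted p = 0.065, 0.61 and 0.22). Whether this step belongs to the arrays was not tested.

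**Figure D2:**
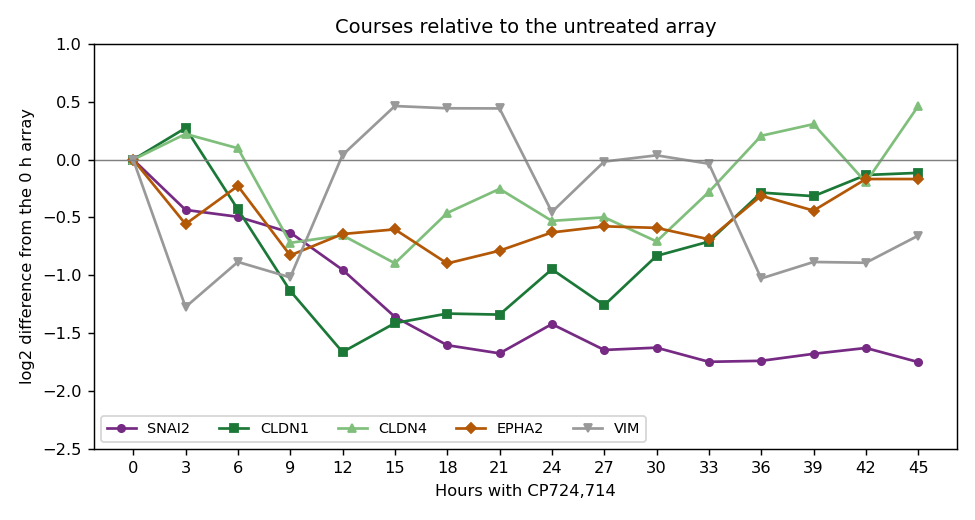
Log2 difference from the untreated 0 h array (y axis) against hours with CP724,714 (x axis) for SNAI2, CLDN1, CLDN4, EPHA2 and VIM, 1 array a point, with no error bar since time points have no replicate. SNAI2 stayed below 0 on all 15 treated arrays, CLDN1 and EPHA2 dipped and came back near 0, and VIM was above 0 at 12 to 21 h and below it at 3 to 9 h and 36 to 45 h.

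The promoters of these 3 genes are shown because they dipped and rose together. RefSeq entries were found for 7 of the 10 genes. CDH1, CDH3 and SNAI2 had no matched entry, so their promoters were not searched. The 250 bases before each start site are given 5′ to 3′ on the gene's strand (GRCh38.p14), CLDN1 at chr3:190322447-190322696 on the minus strand, CLDN4 at chr7:73830746-73830995 on the plus strand and EPHA2 at chr1:16156070-16156319 on the minus strand. Capitals mark matches on either strand to the GC box GGGCGG and to TGANTCA. The latter is a loose form of the AP-1 element, with the middle base left free.
CLDN1: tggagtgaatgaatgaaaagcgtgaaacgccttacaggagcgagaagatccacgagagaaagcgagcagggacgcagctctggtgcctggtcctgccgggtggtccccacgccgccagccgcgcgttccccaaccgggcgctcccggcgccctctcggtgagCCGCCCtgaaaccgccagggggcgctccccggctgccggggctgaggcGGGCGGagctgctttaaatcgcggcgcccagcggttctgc
CLDN4: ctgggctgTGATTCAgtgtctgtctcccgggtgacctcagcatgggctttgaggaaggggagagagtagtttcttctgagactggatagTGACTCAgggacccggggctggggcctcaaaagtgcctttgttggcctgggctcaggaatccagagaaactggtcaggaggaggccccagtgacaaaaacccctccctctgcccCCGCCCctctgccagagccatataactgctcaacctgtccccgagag
EPHA2: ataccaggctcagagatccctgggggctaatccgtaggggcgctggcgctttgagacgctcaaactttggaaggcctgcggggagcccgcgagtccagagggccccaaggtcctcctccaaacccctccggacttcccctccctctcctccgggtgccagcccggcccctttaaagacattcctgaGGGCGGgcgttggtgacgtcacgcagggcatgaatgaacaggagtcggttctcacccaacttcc
All 3 windows held a GC box, 2 matches in CLDN1 and 1 each in CLDN4 and EPHA2, a motif found in 42.6% of 35116 RefSeq promoters of this length. CLDN4 held 2 matches to the loose AP-1 form, TGATTCA and TGACTCA, and the CLDN1 and EPHA2 windows held none. At least 1 such match was in 6.57% of all promoters. Among the windows not shown, 1 of CDH2 held 1 match. The E-box bound by Snail factors, CAGGTG on either strand, was in none of the windows of the 7 genes and in 17.5% of all promoters. The letters are a description of these windows and were not tested against the courses.

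The other tight junction genes included 23 tested of 31. Of these 14 were time-dependent, 4 rose and none fell on a straight line, with a median change of 0.16. The shares over all tested probes were 42.4%, 13.2% and 11.3%. The line of CLDN8 rose by 1.27 (SE 0.22, limma adjusted p = 0.00037), and that of CGN, which codes for the junction scaffold cingulin, by 0.90 (SE 0.14, adjusted p = 0.00014). CLDN8 was below the untreated array on 8 treated arrays and above it on 7. With each set of 4 time points given its own level, the change of CLDN8 was -0.70 and did not pass (limma adjusted p = 0.74). The remaining pair, outside the rule for named genes and picked after their values were seen, were CLDN7 at 0.76 (SE 0.10, limma adjusted p = 4.0e-05) and CLDN23 at 0.67 (SE 0.22, adjusted p = 0.033). OCLN, which codes for occludin, was not detected on any array and was not tested.

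Of 25 genes of the epithelial program, 24 were in the table and 20 were tested. Among the 20, 11 were time-dependent, against 42.4% of all tested probes, 5 rose, against 13.2%, and 1 fell, against 11.3%. The median was 0.25. The line of ELF3, an epithelial ETS factor, rose by 1.48 (SE 0.39, limma adjusted p = 0.0090). ELF3 was below the untreated array on 11 treated arrays and above it on 4. Its mean was 11.81 over the last 4 arrays and between 10.27 and 10.47 in the earlier sets of 4. With each set of 4 time points given its own level, its change was 0.26 and did not pass (limma adjusted p = 0.94). RAB25, an epithelial vesicle GTPase, rose by 1.23 (SE 0.18, limma adjusted p = 7.9e-05). EPCAM, the epithelial adhesion molecule listed as TACSTD1, stayed between 12.18 and 12.64. LAD1, a basement membrane anchor outside the rule and picked after its value was seen, was the gene that fell, by 0.42 (SE 0.13, limma adjusted p = 0.027).

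Of 18 other ephrins and Eph receptors, 11 were tested, with 7 time-dependent, 2 up and 2 down. This compares with 42.4%, 13.2% and 11.3% of all tested probes. EFNB3, detected on 10 arrays, rose by 2.01 (SE 0.21, limma adjusted p = 1.8e-06). At 0 h it was 5.00, below the lowest detected value there (5.46). The line of EPHB6, a receptor without kinase activity, rose by 1.67 (SE 0.59, limma adjusted p = 0.044). EPHB6 was below the untreated array on 11 of 15 treated arrays, lowest at 12 h (5.75), and 0.41 above it at 45 h. EFNB1 fell by 1.26 (SE 0.33, limma adjusted p = 0.0091) and EFNB2 fell by 1.17 (SE 0.19, adjusted p = 0.00021). EFNA1, a ligand of EPHA2, was time-dependent (limma adjusted p = 0.011) between 10.44 and 12.64, with a straight-line change of 0.04.

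**Figure D3:**
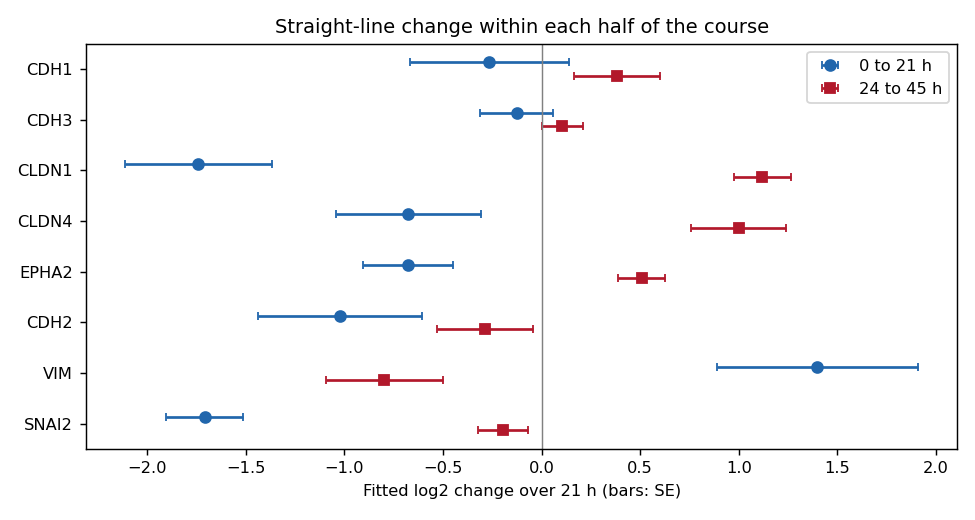
Fitted log2 change over 21 h (x axis) of the 8 tested genes (y axis) in the arrays of 0 to 21 h (circles) and of 24 to 45 h (squares), 8 arrays each, with bars of 1 SE. CLDN1, CLDN4 and EPHA2 were negative early and positive late, VIM was positive early and negative late, and SNAI2 went from -1.71 to -0.20.

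Slopes of the early and the late arrays differed for 5 of the 8 genes (CLDN1, CLDN4, EPHA2, VIM and SNAI2), against 24.5% of all tested probes. The early and late arrays are also the 2 sets of array background, and time and set cannot be told apart there.

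VIM, the intermediate filament gene of mesenchymal cells, which basal mammary cells in culture also express, moved in blocks. It was 7.63 at 0 h, 6.35, 6.74 and 6.61 at 3, 6 and 9 h, 7.67, 8.09, 8.07 and 8.07 from 12 to 21 h, 7.18, 7.61, 7.67 and 7.59 from 24 to 33 h, and 6.60, 6.74, 6.74 and 6.97 from 36 to 45 h. All 4 arrays of 12 to 21 h were above the rest, although the 12 h array was level with the 30 h array. The lowest (3 h) and the highest (15 h) were 3.34-fold apart, and the steps were 1.06 from 9 to 12 h, -0.90 from 21 to 24 h and -0.99 from 33 to 36 h. These steps lie at the borders of the sets of 4 consecutive time points. The spline spanned 1.17 but missed the threshold in limma (adjusted p = 0.055). The time dependence of VIM passed with the 2 array backgrounds as a block (limma adjusted p = 0.038), and in 9 of 29 alternative settings in all. Among these were the fits without the untreated array (0.0017), the 24 h array (0.0067) or the 33 h array (0.027). With each set of 4 time points given its own level, the time dependence of VIM did not pass. The straight line gave -0.22 over 45 h (limma adjusted p = 0.77). The change over 21 h was 1.40 early (SE 0.51) and -0.80 late (SE 0.30), neither past the threshold (limma adjusted p = 0.095 and 0.061), and these differed by -2.20 (SE 0.64, adjusted p = 0.020). With the moments of all negative controls the difference was -0.45 (adjusted p = 0.013).

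FN1 and SPARC, which code for the matrix glycoproteins fibronectin and osteonectin, were not detected at 0 h or on any treated array. Their normalized log2 signals were 4.72 to 4.97 and 4.59 to 5.05, and the limits of detection allow no statement about their course.

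The other mesenchymal and matrix genes went both ways. Of 45, 44 were in the table and 32 were tested. Of the 32, 21 were time-dependent, 7 rose and 7 fell, with a median of 0.15, against 42.4%, 13.2% and 11.3% of all tested probes. TNC, the matrix protein tenascin-C, fell by 3.01 (SE 0.19, limma adjusted p = 8.5e-09). FBLN1, which codes for fibulin-1, rose by 1.20 (SE 0.15, limma adjusted p = 2.0e-05). MYL9, a myosin light chain, rose by 0.97 (SE 0.20, limma adjusted p = 0.0014). It was detected on 6 arrays only, and its 0 h value of 5.14 was below the lowest detected value there (5.46).

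**Figure D4:**
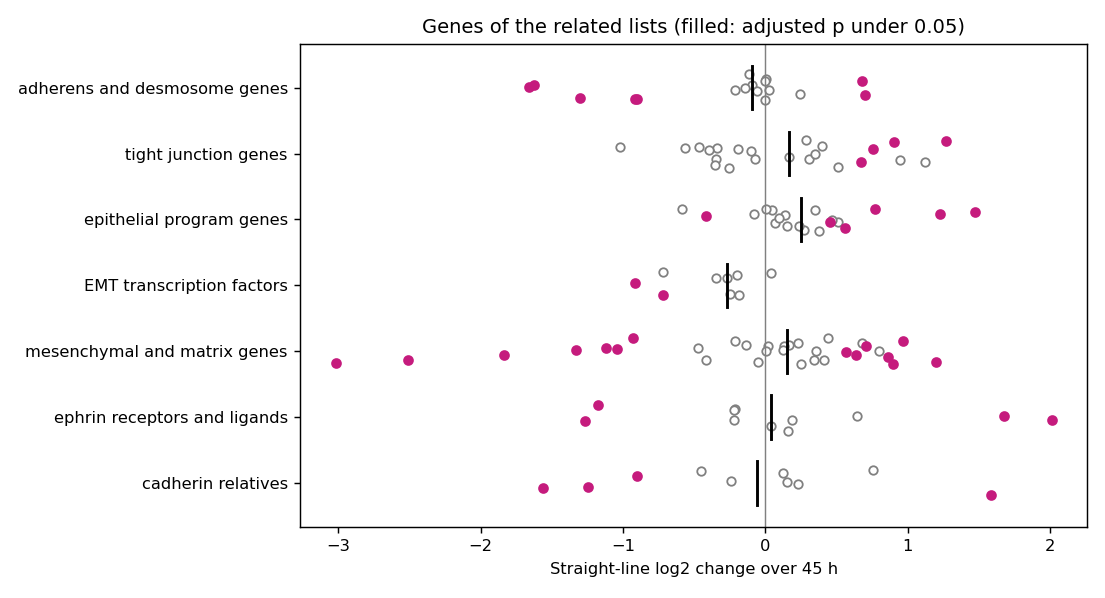
Straight-line log2 change over 45 h (x axis) of each tested gene of the 7 related lists (y axis, 1 point a gene), with filled points past an adjusted p of 0.05 and a bar at each list's median. The medians lie between -0.27 (EMT transcription factors) and 0.25 (epithelial program genes), and the mesenchymal and matrix list holds 7 filled points on each side.

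By the 1.7-fold change of the study's methods, set here against the 0 h array and without an error term, 7 of the 8 tested genes moved at some time, CDH1 up and CLDN1, CLDN4, EPHA2, CDH2, VIM and SNAI2 down, against 53.1% of tested probes in either direction, 28.4% up and 27.7% down. The count was 4 with an offset of 50 and 3 without background correction. SNAI2 was more than 1.7-fold below the untreated array on all 12 arrays from 12 h on. CDH3 stayed within that limit throughout.

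The genes nearest in course to the others were, by the same measure, SAP18 and CTSK for CLDN1 (0.210 each), C1orf63 and ANK2 for CLDN4 (0.208 each), and LETM1 (0.168) and FRMD5 (0.169) for CDH2. CTSK, the cathepsin K gene, was 7.32 at 0 h with a lowest value of 5.74, and LETM1, a mitochondrial inner membrane protein gene, went from 7.87 to 6.95.

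On the epithelial side, the straight-line changes of CDH1, CDH3, CLDN1 and CLDN4 had a median of 0.30, and on the mesenchymal side those of CDH2, VIM and SNAI2 had a median of -0.99. The -0.99 is the value of CDH2. Its line did not pass with the 2 array backgrounds as a block (limma adjusted p = 0.14) and turned to 0.51 with sets of 4 time points. A straight line does not describe the dip and rise of CLDN1 and CLDN4. None of the 4 epithelial genes passed the straight-line test and 2 of the 3 tested mesenchymal genes did, against 24.4% of all tested probes. FN1 and SPARC gave no value. So few genes do not show a shift of either side.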

How the data were processed

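RNA of 16 MCF10HER2 cultures, 1 array for each time point, was measured on Illumina Ref-8 v2 beadchips. The authors deposited, for each probe and array, an intensity before normalization between arrays and a detection p-value against the negative controls of that array. How the scanner signals were summarised is not given in the sources used here.

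The negative controls of an array were inferred from the deposited detection p-values, and their centre (the signal at a p of 0.5) and spread were read so that a few bright controls did not enter. Control centres lay between 144.5 and 185.1 and SDs between 15.6 and 26.9, while SDs over all controls lay between 212 and 491 and compressed the changes of dim probes. Intensities were corrected with normexp at these moments, with an offset of 16, quantile-normalized and taken to log2 (limma 3.58.1, R 4.3.3). For some probes the deposited detection p-value did not fall as the intensity rose, and these p-values were used as given. A probe undetected at the lower end of a fold has a lower bound there.

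Tested probes had a detection p-value under 0.05 on at least 3 of the arrays (lmFit, then eBayes with its trend option). The tests were a 4-degree spline in time, a straight line, the treated mean against the 1 untreated array (a spline with 3 degrees of freedom, centred, followed time among the 15 treated arrays, and the untreated array was taken to vary as they do), and the difference in slope between 0 to 21 h and 24 to 45 h. P-values were Benjamini-Hochberg adjusted over 12321 probes, at a threshold of 0.05, and rest on the scatter of single arrays about a curve. The number of arrays limits the precision. The scripts were tested on simulated data with known changes.

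The genes and lists were chosen with earlier results of these data known. From each list the 2 genes with the largest rise and the 2 with the largest fall were named, among those past the threshold and detected at their higher end, with 1 gene that this rule names not reported here, and for genes past the spline test with a fitted range of 1 or more, the 2 genes with the nearest course. TWIST2, LLGL2 and SPOCK1 were not matched to a symbol. Promoter sequences come from RefSeq (GRCh38.p14), which was used for nothing else. Alternatives were other background corrections, scalings, filters, baselines, spline sizes, array weights, blocks, time windows and leaving out each array.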

Additional observations from a re-analysis of the deposited data

Results flagged for a closer look

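The change over 21 h differed between the arrays of 0 to 21 h and those of 24 to 45 h for 5 genes. The late change minus the early one was 2.86 for CLDN1, 1.67 for CLDN4, 1.19 for EPHA2, 1.51 for SNAI2 and -2.20 for VIM on the log2 scale, each past the threshold of the limma test of the difference itself. CLDN1, CLDN4 and EPHA2 turned from a fall to a rise, VIM from a rise to a fall, and SNAI2 went from a fall to a slope near 0. The array background differs between the same sets of arrays, and set and time cannot be told apart.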

How the results depend on the processing

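No paired analysis was possible because no time point has a second array. The time dependence of SNAI2 was the firmest result, since it passed under all 29 alternatives. That of CLDN1 passed under 28 of 29 and was lost with the sets of 4 as a block (limma adjusted p = 0.065). The difference in slope of SNAI2, CLDN1 and VIM passed under all 25 alternatives fitted for it. No block was among these 25, and the difference cannot be told apart from the array background. The count of genes changed 1.7-fold, 7, was 4 with normexp on the signals alone at an offset of 50, 3 without background correction, 4 at 2-fold, 4 against the median over the 16 arrays, and 3 with the moments of all negative controls, a setting chosen after seeing the data. The count with a linear trend, 2, was 1 among probes detected on all 16 arrays, 1 with the array background as a block and 0 when each set of 4 consecutive time points had its own level. The count differing from the untreated array, 3, was 0 with array weights and 0 without a spline among the treated arrays. The count of time-dependent genes, 5, was 1 with the sets of 4 as a block. Leaving out each array in turn gave 6 to 7 genes changed 1.7-fold, 3 to 3 differing from the untreated array, 4 to 5 with a slope difference, 2 to 2 with a linear trend and 4 to 7 time-dependent, and without the 0 h array the comparisons with it cannot be made. With the sets of 4 as a block the straight-line change over 45 h turned sign to 0.51 for CDH2, -0.37 for CTNNBIP1, -0.70 for CLDN8, -0.62 for MYL9 and -0.57 for EPHB6. In the arrays of 0 to 21 h alone, scaled to 45 h, it turned to -3.73 for CLDN1, -0.027 for PKP2, 0.059 for PVRL1, -0.86 for ELF3 and -2.78 for EPHB6, and in those of 24 to 45 h alone to -0.54 for CTNNBIP1, 0.055 for FOXC1 and 0.24 for EFNB1. Over all 12321 tested, the 5219 time-dependent probes became 1233 with the sets of 4 as a block, the 3008 probes with a linear trend became 803 with the array background as a block, 1445 in the arrays of 0 to 21 h alone and 1 with the sets of 4, and the 2411 probes differing from the untreated array became 1082 with the array background as a block, 208 without a spline among the treated arrays and 0 with array weights. The cause of these shifts was not tested. Signals near background limit CDH1, CDH2, FN1 and SPARC. VIM and CLDN4 were dim too, with mean signals of 321 and 328 beside 259 for CDH1. Their fitted changes shrank with the moments of all negative controls.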
